A study of Homo sapiens with 4 samples.

Results

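The genes of the centromere, the kinetochore and the spindle checkpoint were examined in RNA-seq libraries of cells labelled A549 after knockdown of *DLX6*, a distal-less homeobox transcription factor. The set holds 47 named genes of the 51136 rows in the deposited table. They were chosen by name for their place in this machinery, with earlier results of these data known. Comparisons of the set with all tested genes are thus descriptions. All 47 were found by the table's gene identifier. A549 is an established human lung adenocarcinoma line. Cells grown with 10% fetal bovine serum were transfected with interfering RNA aimed at *DLX6* (si-DLX6, 2 libraries, genotype given as DLX6 knockdown) or a control RNA (si-control, 2 libraries, genotype given as WT). The labels also name adipogenic differentiation as the treatment of all 4 libraries, which neither the titles nor the transfection protocol mention. Whether libraries 1 and 2 were grown as separate cultures is not stated, so the p-values cover only how far these libraries differ, which could be technical spread.

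The library totals by which the values were scaled, as recovered from the deposited values, were 9678221 to 12075285 reads. Of these, 97.93% to 98.05% lay in genes, and the number of reads sequenced is not stated. *DLX6* itself was at 3.27 and 3.47 FPKM (fragments scaled by gene length and library size) in the si-control libraries and at 0.916 and 0.450 FPKM in the si-DLX6 libraries, so the targeted gene followed the labels. The line label was not borne out by every marker. The keratins *KRT8* and *KRT18* were abundant (2295 to 8423 reads per library), but *EPCAM*, *KRT19* and *CDH1*, the other 3 of 5 epithelial markers, had at most 8 reads in any library. *CDKN2A* and *MTAP*, which A549 is known to have lost, had 418 to 616 and 363 to 745 reads per library. *AKR1B10* and *ALDH1A1*, known to be abundant in A549, had at most 7 and 2 reads. The mesenchymal filament gene *VIM* had 52963 to 67961 reads. *VIM* and these 4 genes were chosen after the epithelial markers had been seen, and below, the cells are those labelled A549. Adipocyte markers were near 0 (0 to 3 reads per library over 5 genes), as were 6 markers of blood and endothelium (2 to 16 reads) and 5 of fibroblasts (14 and 14 reads in si-control cells, 44 and 39 after si-DLX6). Their part in the results was not tested.

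The centromere is the stretch of each chromosome that carries the histone variant CENP-A, and the kinetochore is the protein structure built on it that binds spindle microtubules. Inner kinetochore proteins bind CENP-A chromatin throughout the cycle, outer proteins join for mitosis and hold the microtubules, and checkpoint proteins hold back anaphase until every kinetochore is attached. Many of the genes are transcribed in a cell cycle wave that peaks in G2 and mitosis, so in a dividing line their transcript levels depend on how many cells are in that window. In bulk RNA, fewer cells in the window and less RNA per cell cannot be told apart.

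All 47 genes had at least 1 FPKM in at least 2 libraries and were tested. With si-DLX6, 12 fell (limma, adjusted p under 0.05) and 0 rose, against 9.49% of all 15504 tested genes called lower and 10.2% called higher. The 12 are 25.5% of the set, and 19.6% of all tested genes were called in either direction. No gene rose at an unadjusted p under 0.05 either, nor by limma-voom on recovered reads, which called 17 lower. The median log2 difference of the 47, si-DLX6 minus si-control on the scale of log2(FPKM + 1), was −0.23, against 0.05 for all genes tested. In 38 of 47 the difference was below 0, where 45.4% of all tested genes were. Both si-DLX6 libraries lay below both si-control libraries in 30 of the 47 (27.9% of all tested genes) and above them in 2 (35.1%). The range ran from −1.40 for *ZWILCH* to 0.23 for *SKA2*. Over all genes the split of calls depended on scaling, with 1575 higher and 1471 lower as deposited and 1090 and 1817 by median-of-ratios, but the 47 had 0 rises under either.

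**Figure D1:**
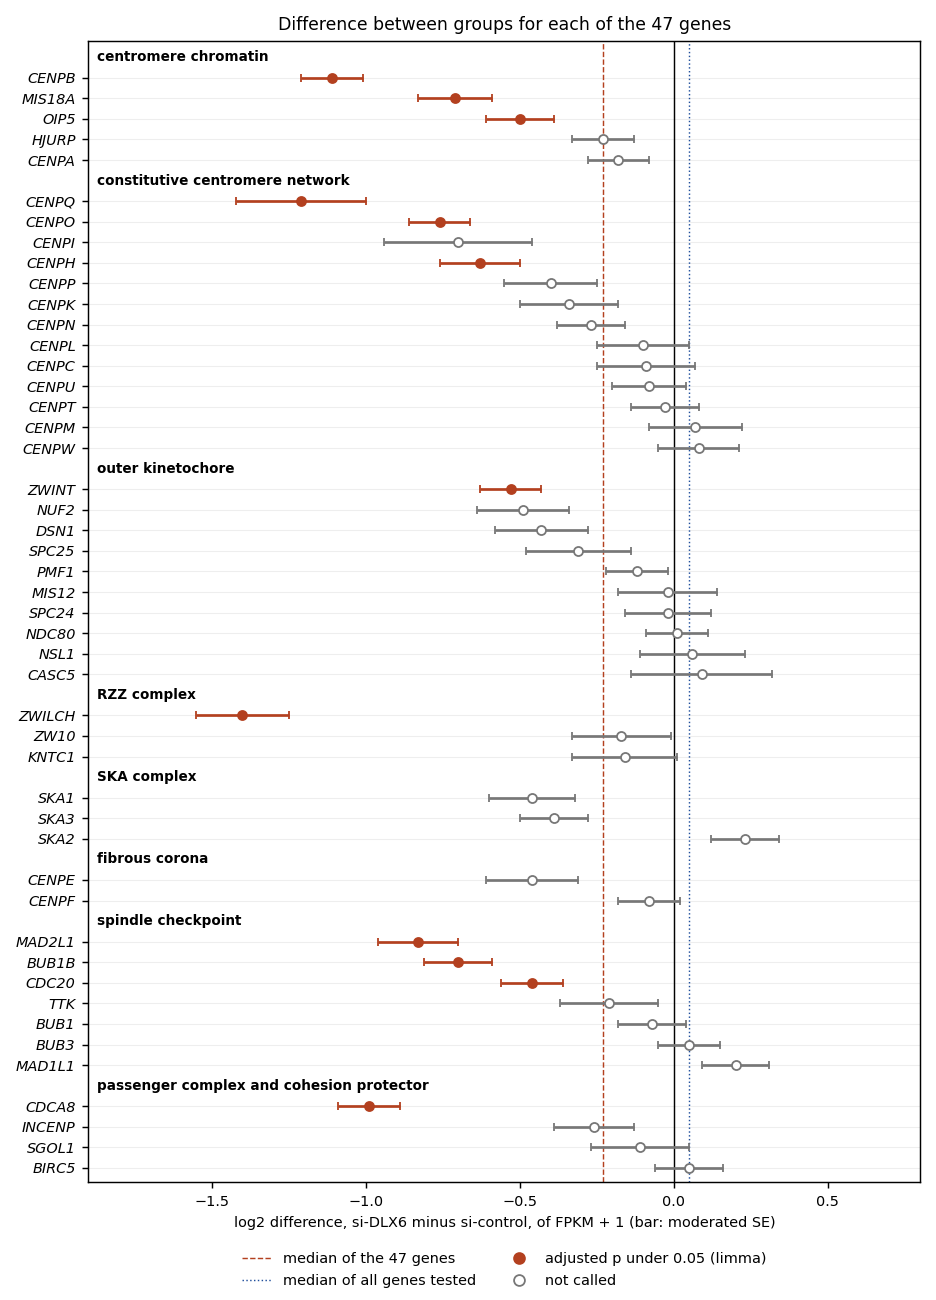
Log2 difference between groups for each of the 47 genes, grouped by role, with the moderated standard error as bar; filled points are the 12 genes with a limma adjusted p under 0.05. All 12 lie left of 0, and the dashed line (the median of the 47, −0.23) lies left of the dotted line (the median of all genes tested, 0.05).

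**Figure D2:**
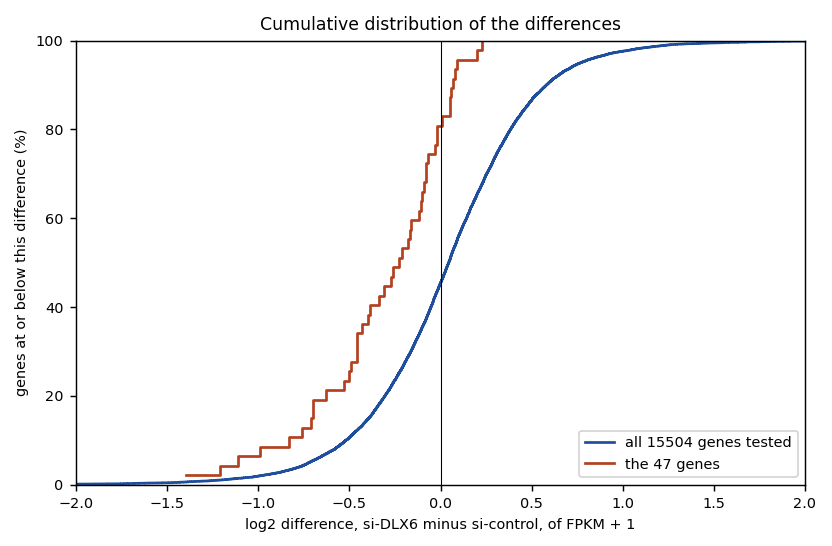
Cumulative share of genes, in percent, at or below each log2 difference, for the 47 genes and for all 15504 tested genes. The curve of the 47 genes lies to the left over most of the range and ends at 0.23.

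Promoters of the genes were looked at for the letters that mark genes of the mitotic wave. Such promoters are known to carry a cell cycle homology region (CHR, TTTGAA), often with CCAAT boxes nearby, and replication genes carry E2F sites. RefSeq promoters (GRCh38.p14, 250 bases before to 50 after a gene's start) were matched for 38 of the 47 genes. A gene counted if any of its promoters held the letters, whereas shares of all 35116 promoters count each promoter. The shares among tested genes are by gene. On either strand, TTTGAA was found in 18 of them (47.4%, against 15.2% of all 35116 promoters in the table) and CCAAT in 25 (65.8% against 34.6%). Both were found in 12 (31.6% against 5.90%). An E2F site, searched as TTTGGCGC, TTTCCCGC or TTTCGCGC, was found in 4 (10.5% against 2.74%). All 47 genes are expressed, and among the 9793 of 15504 tested genes that have a promoter in the table the shares were 13.1% for TTTGAA, 43.6% for CCAAT, 5.66% for both and 5.98% for an E2F site. Of the 18 genes with TTTGAA 6 fell, with a median log2 difference of −0.35 over the 18, and of the 20 without it 4 fell, with a median of −0.12. Over the tested genes with a promoter, 8.83% of those with TTTGAA and 9.79% of those without were called lower, with medians of 0.05 and 0.07. For CCAAT the medians were in the other order, −0.23 with it and −0.46 for the 13 without. Of the 25 with CCAAT 7 fell and of the 13 without it 3. Over the tested genes with a promoter, 11.1% with CCAAT and 8.56% without were called lower. For an E2F site 1 of the 4 fell (median −0.13) and 9 of the 34 without it (median −0.32). Over the tested genes those shares were 15.0% and 9.32%. These counts are descriptions and were not tested.

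To show what these stretches look like, 150 bases before to 50 after the start follow for the 4 genes with TTTGAA that fell with the smallest p, and for 2 with TTTGAA whose p was largest. Capitals mark TTTGAA and CCAAT on either strand (TTCAAA and ATTGG when read from the other strand). In *CDCA8* (chr1:37692366-37692565, plus strand) TTTGAA begins at −23, counting the start base as 0, and overlaps a CCAAT box, with 3 such boxes in all. *BUB1B* (chr15:40160919-40161118, plus strand) has it at −23 as well, with no CCAAT in the stretch. *MAD2L1* (chr4:120066799-120066998, minus strand) has it at 24 and *CENPO* (chr2:24793275-24793474, plus strand) at 36, both past the start. Of the genes that did not pass the test, *NDC80* (chr18:2571407-2571606, plus strand) has it at −3 and *CENPC* (chr4:67545454-67545653, minus strand) at −90.
CDCA8: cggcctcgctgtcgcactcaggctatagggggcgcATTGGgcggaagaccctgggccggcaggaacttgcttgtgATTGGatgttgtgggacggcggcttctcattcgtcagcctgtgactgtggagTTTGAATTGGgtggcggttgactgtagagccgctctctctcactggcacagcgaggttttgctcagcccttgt
BUB1B: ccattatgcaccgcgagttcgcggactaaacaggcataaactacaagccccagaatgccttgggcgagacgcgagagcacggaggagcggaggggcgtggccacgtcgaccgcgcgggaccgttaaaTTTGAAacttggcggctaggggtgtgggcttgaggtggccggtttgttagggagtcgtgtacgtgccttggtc
MAD2L1: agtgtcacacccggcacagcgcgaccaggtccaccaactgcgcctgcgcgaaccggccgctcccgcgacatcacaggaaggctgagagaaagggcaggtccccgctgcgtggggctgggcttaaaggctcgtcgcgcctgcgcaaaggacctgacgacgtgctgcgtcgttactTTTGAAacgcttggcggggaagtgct
CENPO: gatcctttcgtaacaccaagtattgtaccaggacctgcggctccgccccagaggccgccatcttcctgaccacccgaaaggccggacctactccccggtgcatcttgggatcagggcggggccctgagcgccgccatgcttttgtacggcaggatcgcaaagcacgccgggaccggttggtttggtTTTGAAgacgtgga
NDC80: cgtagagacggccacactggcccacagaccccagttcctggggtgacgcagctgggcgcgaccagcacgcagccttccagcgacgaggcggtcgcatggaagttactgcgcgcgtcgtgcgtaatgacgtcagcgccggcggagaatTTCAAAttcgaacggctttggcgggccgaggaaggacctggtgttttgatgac
CENPC: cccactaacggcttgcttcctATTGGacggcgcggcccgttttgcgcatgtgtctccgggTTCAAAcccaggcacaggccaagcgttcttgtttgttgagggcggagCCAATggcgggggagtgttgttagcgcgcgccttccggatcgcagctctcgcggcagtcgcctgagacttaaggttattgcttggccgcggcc

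In the group that makes and marks centromere chromatin, 3 of 5 genes fell (60.0%, against 9.49% of all tested genes called lower). *CENPB*, whose protein binds a short DNA box in centromeric satellite repeats, was at 31.9 and 30.9 FPKM in si-control cells and at 13.7 and 14.2 FPKM after si-DLX6. The groups were far apart, with a log2 difference of −1.11 (SE 0.10, limma adjusted p = 0.00354). *MIS18A* and *OIP5* encode the partners of the Mis18 complex, which readies centromeres for new CENP-A. *MIS18A* went from 15.9 and 14.3 to 8.86 and 8.77 FPKM (log2 difference −0.71, SE 0.12, limma adjusted p = 0.0139). *OIP5* went from 27.7 and 25.1 to 17.4 and 19.2 FPKM (−0.50, SE 0.11, limma adjusted p = 0.0285). In both, the si-DLX6 libraries lay below the si-control libraries. The CENP-A gene itself differed less. *CENPA* was at 27.8 and 27.9 FPKM against 23.9 and 25.1, and *HJURP*, its chaperone, at 67.1 and 73.5 against 58.8 and 60.7. Neither passed the test (−0.18 and −0.23, limma adjusted p = 0.248 and 0.148), although their groups did not overlap.

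The constitutive centromere network is the inner kinetochore assembly that stays on CENP-A chromatin. Of its 13 genes 3 fell (23.1%, against 9.49% of all tested genes). Its O-P-Q-U part gave unequal values. *CENPQ* was at 9.40 and 14.2 FPKM in si-control cells and at 4.10 and 4.82 FPKM after si-DLX6 (log2 difference −1.21, SE 0.21, limma adjusted p = 0.0136). The si-control libraries lay apart (11.8 ± 3.40 FPKM, SD, n = 2), yet both were above both si-DLX6 libraries. *CENPO* was at 28.3 and 28.6 against 16.0 and 16.8 FPKM (−0.76, SE 0.10, limma adjusted p = 0.00782), with close replicates in each group. *CENPP*, from 4.71 and 5.09 to 3.35 and 3.57 FPKM, did not pass (−0.40, limma adjusted p = 0.107). For *CENPU*, at 10.4 and 11 against 10.3 and 9.75 FPKM, the difference was −0.08 (SE 0.12).

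In the H-I-K-M part of the network, *CENPH* fell from 22.4 and 27.9 to 16.1 and 15.7 FPKM (log2 difference −0.63, SE 0.13, limma adjusted p = 0.0244). *CENPI*, at 4.62 and 5.62 against 2.00 and 3.71 FPKM, had a difference of −0.70 with a wider error (SE 0.24, limma adjusted p = 0.0898). It passed by limma-voom (log2 difference −0.89, adjusted p = 0.0330) and by limma without si-DLX6 2 (−1.03, adjusted p = 0.0298). The si-DLX6 libraries of *CENPI* rest on 72 and 136 reads and lie far apart. *CENPK* was at 10.9 and 13 against 8.26 and 10.3 FPKM (−0.34, limma adjusted p = 0.178). *CENPM*, of the same part, was at 27.7 and 21.4 against 27.1 and 24.0 FPKM, with groups that overlap (0.07, SE 0.15). The remaining genes of the network did not pass the test. *CENPC*, the scaffold that links CENP-A chromatin to the outer kinetochore, had 80 to 95 reads per library and a difference of −0.09 (SE 0.16). *CENPN*, a direct reader of CENP-A, was at 17.9 and 18.6 against 14.7 and 15.2 FPKM (−0.27, limma adjusted p = 0.133). *CENPL*, *CENPT* and *CENPW* lay between −0.10 and 0.08, and their groups overlapped. *CENPT* and *CENPW* encode histone-fold partners.

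Of 10 outer kinetochore genes 1 fell (10.0%), near the share of all tested genes called lower (9.49%). It was *ZWINT*, whose protein joins the outer kinetochore scaffold KNL1 to the checkpoint, at 80.2 and 88.6 FPKM against 58.5 and 57.6 (log2 difference −0.53, SE 0.10, limma adjusted p = 0.0170). The NDC80 complex is the main microtubule binder, a rod of *NDC80* and *NUF2* at one end and *SPC24* and *SPC25* at the other. *NDC80* was at 58.3 and 61.9 FPKM against 57.5 and 63.4, a difference of 0.01 (SE 0.10). Its direct partner *NUF2* was at 21.0 and 25.6 against 14.8 and 17.7 FPKM, with groups apart (−0.49, SE 0.15), and just missed the threshold (limma adjusted p = 0.0598; 0.0433 by limma-voom). *SPC24* was at −0.02 (SE 0.14) and *SPC25* at −0.31 (SE 0.17, limma adjusted p = 0.234).

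The remaining outer genes belong to the Mis12 complex and the scaffold. *DSN1* was at 18.9 and 22.5 against 13.6 and 16.7 FPKM (log2 difference −0.43, limma adjusted p = 0.0864). *MIS12*, *NSL1* and *PMF1*, its partners, were at −0.02, 0.06 and −0.12. *CASC5*, the symbol used in the table for the KNL1 scaffold gene, was at 4.67 and 6.86 against 4.96 and 7.47 FPKM (0.09, SE 0.23). There the libraries of a group differed more than the groups. *NSL1* had the lowest level of all 47 genes, 1.5 to 1.7 FPKM.

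The RZZ complex of *ZW10*, *KNTC1* (the Rod protein) and *ZWILCH* brings dynein and checkpoint proteins to unattached kinetochores. *ZWILCH* gave the lowest log2 difference of the 47, falling from 19.4 and 24.6 FPKM to 7.14 and 8.24 (−1.40, SE 0.15, limma adjusted p = 0.00457). In reads that is 771 and 783 against 246 and 289, or 35.4% of si-control per library total (exact 95% interval 32.0% to 39.1%, counting error only). *ZW10* was at 12.5 and 15.2 against 10.9 and 13.6 FPKM and *KNTC1* at 7.62 and 8.61 against 6.15 and 8.29, both with overlapping groups (−0.17 and −0.16, limma adjusted p = 0.492 and 0.551).

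None of the 3 genes of the SKA complex, which helps kinetochores follow moving microtubule ends, passed the limma test, though *SKA1* and *SKA3* did by limma-voom. *SKA1* was at 9.71 and 8.32 against 6.24 and 6.33 FPKM (log2 difference −0.46, limma adjusted p = 0.0659; 0.0435 by limma-voom). *SKA3* was at 17.7 and 17.3 against 12.9 and 13.3 FPKM (−0.39, limma adjusted p = 0.0504; 0.0430 by limma-voom). *SKA2* lay the other way with no overlap of the groups, at 17.0 and 19.3 against 21.5 and 21.5 FPKM, without passing (0.23, limma adjusted p = 0.192). Of the genes of the fibrous corona, *CENPE*, a kinesin motor, was at 6.13 and 7.14 against 4.35 and 4.69 FPKM (−0.46, limma adjusted p = 0.0752; 0.0203 by limma-voom). *CENPF*, a large protein of the same layer, was at 25.9 and 26.3 against 24.1 and 25.2 FPKM (−0.08, SE 0.10).

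Of the 7 spindle checkpoint genes 3 fell (42.9%, against 9.49% of all tested genes). *MAD2L1*, whose protein MAD2 holds the anaphase activator CDC20 in check, went from 28.7 and 33.0 to 15.6 and 18.3 FPKM (log2 difference −0.83, SE 0.13, limma adjusted p = 0.0105). *BUB1B*, which encodes the CDC20 inhibitor BUBR1, went from 36.6 and 40.6 to 22.4 and 24.4 FPKM (−0.70, SE 0.11, limma adjusted p = 0.0108). *CDC20* itself had the highest level of the 47 and went from 297 and 292 to 224 and 205 FPKM (−0.46, SE 0.10, limma adjusted p = 0.0264). In these 3 genes every si-DLX6 library lay below every si-control library. The other 4 did not pass. *BUB3*, a partner of BUBR1 and of the kinase BUB1, was at 61.6 and 56.1 against 58.4 and 63.8 FPKM (0.05, SE 0.10). *BUB1* was at 57.0 and 63.4 against 53.6 and 61.1 FPKM (−0.07, SE 0.11). *MAD1L1*, whose protein anchors MAD2 at kinetochores, was at 27.0 and 23.4 against 29.4 and 28.8 FPKM (0.20, limma adjusted p = 0.244). *TTK*, the kinase MPS1 that starts checkpoint signalling, was at 24.9 and 28 against 19.4 and 26.3 FPKM (−0.21, limma adjusted p = 0.379).

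The chromosomal passenger complex corrects wrong attachments and carries Aurora B kinase. Of its 3 genes here *CDCA8*, the Borealin gene, fell from 61.5 and 65.7 to 32.3 and 30.8 FPKM (log2 difference −0.99, SE 0.10, limma adjusted p = 0.00408). *BIRC5*, the gene of its direct partner Survivin, was at 97.0 and 87.5 against 102 and 89.1 FPKM (0.05, SE 0.11), with groups that overlap. *INCENP*, the scaffold of the complex, was at 14.1 and 15.5 against 11.2 and 13.3 FPKM (−0.26, limma adjusted p = 0.211). The Aurora B gene *AURKB* is not in the set and was lower too. It was at 99.5 and 89.7 against 66.6 and 57.3 FPKM (−0.61, SE 0.12, limma adjusted p = 0.0181). *SGOL1*, which protects centromeric cohesion, was at 2.91 and 2.88 against 2.77 and 2.47 FPKM (−0.11, SE 0.16).

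**Figure D3:**
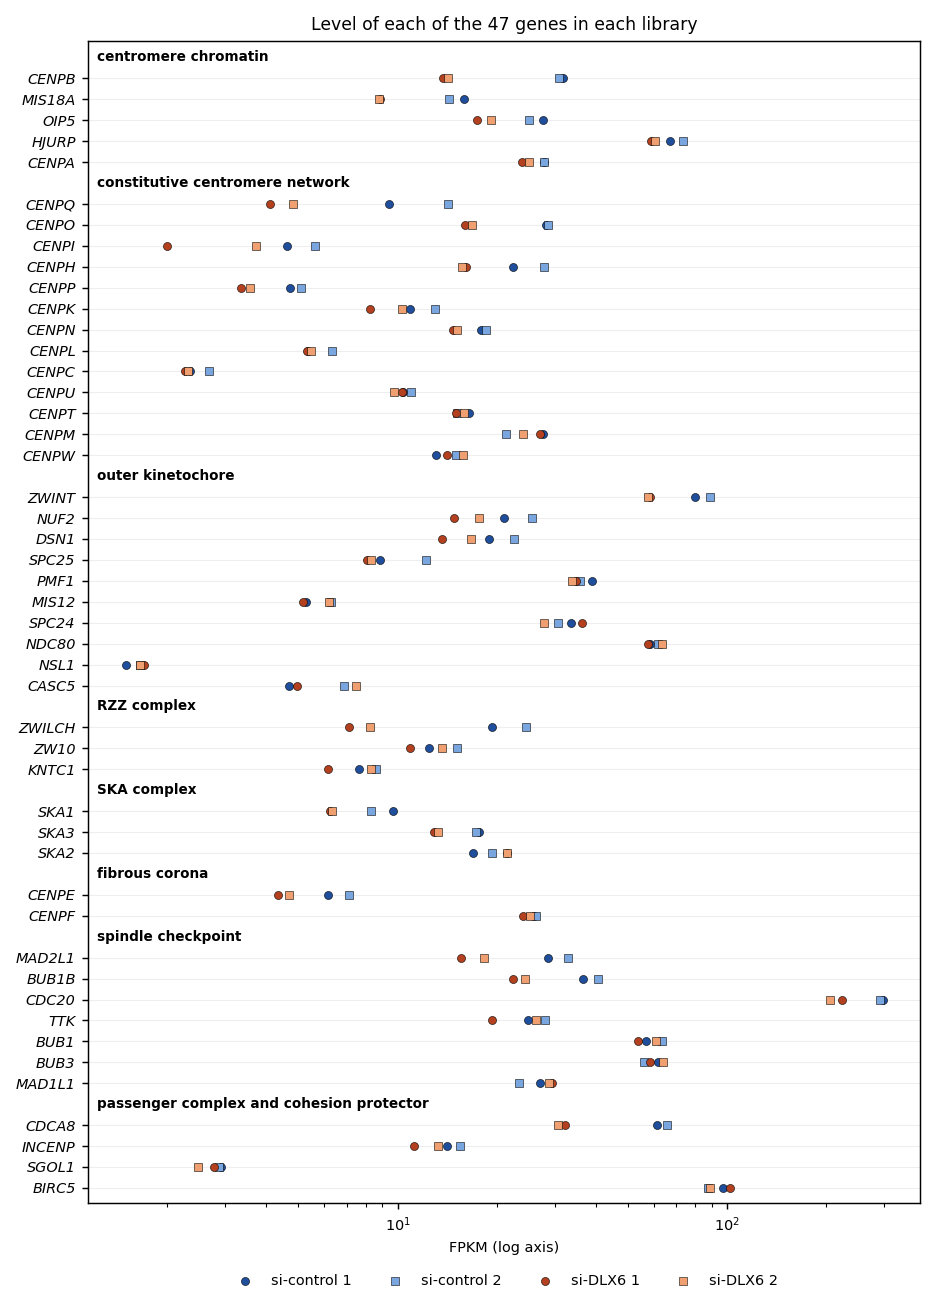
FPKM of each of the 47 genes in each of the 4 libraries, on a log axis, grouped by role. *ZWILCH*, *CENPB* and *CDCA8* show separated blue (si-control) and red or orange (si-DLX6) points, while those of *NDC80*, *BUB1*, *BUB3* and *BIRC5* overlap.

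Because partners of a complex differed in their values, the ratio of their FPKM was taken within each library, for pairs chosen after the values were seen. With 2 libraries against 2, an exact two-sided permutation test cannot give a p below 0.333, so these ratios are descriptions. *ZW10* over *ZWILCH* was 0.645 and 0.618 in si-control cells and 1.52 and 1.66 after si-DLX6. The ratio of *BIRC5* to *CDCA8* was 1.58 and 1.33 against 3.15 and 2.89, and that of *MAD1L1* to *MAD2L1* 0.941 and 0.709 against 1.88 and 1.58. For *CENPU* over *CENPQ* it was 1.11 and 0.773 against 2.52 and 2.02. In each of these pairs both si-DLX6 libraries lay above both si-control libraries. *BUB1* over *BUB1B* was 1.56 and 1.56 against 2.40 and 2.50, and *NDC80* over *NUF2* was 2.78 and 2.42 against 3.89 and 3.58. Other partners kept closer values. *HJURP* over *CENPA* was 2.41 and 2.63 against 2.46 and 2.42, and *NDC80* over *SPC24* was 1.73 and 2.02 against 1.59 and 2.27, with groups that overlap.

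**Figure D4:**
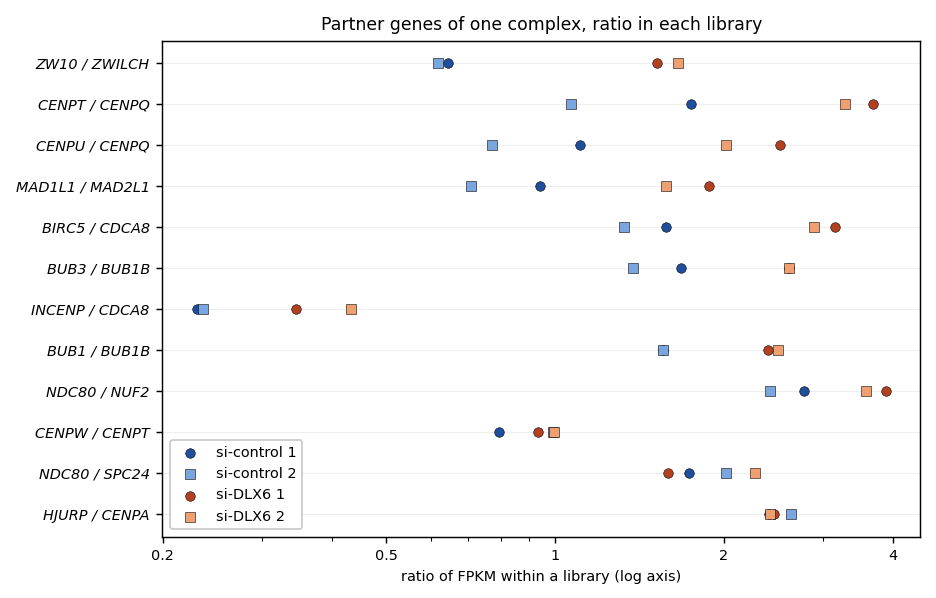
Ratio of the FPKM of partner genes within each library, on a log axis, ordered by the change between groups. Pairs at the top, such as *ZW10* over *ZWILCH* (0.645 and 0.618 against 1.52 and 1.66), separate the groups, and pairs at the bottom, such as *HJURP* over *CENPA*, do not.

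Per gene length, levels of the 47 spanned from 295 FPKM for *CDC20* to 1.57 FPKM for *NSL1* (mean of the si-control libraries), and *BIRC5* (92.3 ± 6.76, SD, n = 2) came next to *CDC20* (295 ± 3.95, SD, n = 2). *ZWINT* followed at 84.4 ± 5.99 and *HJURP* at 70.3 ± 4.59 FPKM (SD, n = 2 each). *BIRC5* and *ZWINT* lay within the sum of their SDs of each other. Those that fell had a median level of 29.6 FPKM in si-control and those that did not pass 15.8 FPKM, and the median number of reads per gene, summed over the 4 libraries, was 2436 and 1741. Summed over all 47 genes the level was 1440 and 1484 FPKM in si-control cells and 1161 and 1177 FPKM after si-DLX6. *CDC20* weighs most in this sum, with 297 and 292 against 224 and 205 FPKM. By role, the sum ran from 91.5% of si-control for the 3 SKA genes to 61.8% for the 3 RZZ genes. For the 10 outer kinetochore genes it was 84.5%. Within RZZ, *ZWILCH* was at 34.9% and *ZW10* and *KNTC1* at 88.4% and 89.0%. Within SKA, *SKA2* was at 118% and *SKA1* and *SKA3* at 69.7% and 74.7%.

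Among genes with related tasks that are not in the set, most calls were falls as well. Over all tested genes 9.49% were called lower and 10.2% higher. Of 24 other kinetochore and checkpoint genes 8 fell (33.3%) and 1 rose, with a median log2 difference of −0.29. *SPDL1* (Spindly), which works with RZZ to bring in dynein, fell from 38.5 and 39.7 to 16.7 and 16.0 FPKM (−1.21, SE 0.10, limma adjusted p = 0.00295). The mitotic kinase gene *PLK1* was at −0.76, *KNSTRN*, a kinetochore adaptor, at −0.70, and *STRA13*, the table's symbol for the CENP-X gene, at −0.78. The gene that rose was *CLIP1*, a microtubule plus-end protein (0.59, limma adjusted p = 0.0367). Of 24 genes of the anaphase-promoting complex and its substrates 7 fell (29.2%) and 1 rose (median −0.22). Those with the smallest p were its ubiquitin-conjugating enzymes *UBE2S* (−0.89) and *UBE2C* (−0.72), the subunit *ANAPC11* (−0.97) and the substrate *CCNA2* (−0.96), whereas *ANAPC16* rose (0.54). Of 8 condensin genes 3 fell (37.5%), *NCAPH* (−0.60), *NCAPG* (−0.52) and *NCAPD3* (−0.44), and 0 rose (median −0.24). By unadjusted p under 0.05 and by limma-voom 0 condensin genes rose too. Of 12 cohesin genes 2 fell (16.7%), *CDCA5* (−0.43) and *HDAC8* (−0.48), and the median was 0.03. By limma 0 of the 12 rose, while 2 did at an unadjusted p under 0.05 and 2 by limma-voom.

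Some calls rest on all 4 libraries. *OIP5* was not called without any one of them (limma adjusted p from 0.0583 to 0.122). *CDC20* was not called without si-control 1 (0.106), si-control 2 (0.0985) or si-DLX6 2 (0.107), all by limma. *CENPH* and *ZWINT* lost their calls without si-control 2 (limma adjusted p = 0.102 and 0.0762), si-DLX6 1 (0.0602 and 0.0512) or si-DLX6 2 (0.0698 and 0.0568), and *MIS18A* without si-control 1 (0.0655). The calls of *CENPB*, *CENPO*, *CENPQ*, *ZWILCH*, *BUB1B*, *MAD2L1* and *CDCA8* stayed under the threshold without each library. Such a fit leaves a group with 1 library, which is then assumed to vary like the 2 of the other group, so it is a weak check. With no filter on low values 3 of the 12 were called, *CENPB*, *CENPO* and *CDCA8*.

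Shared sequence limits a few values. In GENCODE release 29, 11 of the 47 genes share exon bases with another gene, among them *BUB1B*, *CENPO*, *MAD2L1*, *OIP5* and *ZWILCH* of those that fell. No source states a strand setting for the counts, so in shared bases a gene and a neighbour on the opposite strand cannot be told apart. *BUB1B* shares its bases with *BUB1B-PAK6* on the same strand, as *PMF1* does with *PMF1-BGLAP*. A strand setting would not separate those. The antisense gene *OIP5-AS1* was itself lower (log2 difference −0.57, limma adjusted p = 0.0329). *RPL4*, with 20582 to 27892 reads per library, shares a stretch of at most 64 exon bases with *ZWILCH* and was at −0.09. *ADCY3* and *PTRHD1* share exon bases with *CENPO* and were at −0.19 and 0.72. Of the genes that did not pass, *CENPT* shares them with *NUTF2* (−0.73) and *CENPP* with *IPPK* (0.72). The processed copy *CDC20P1* had 606 to 1010 reads per library and a log2 difference of −0.47, close to that of *CDC20*, and near-identical sequence may have split reads between them. *MAD2L1P1*, a copy of *MAD2L1*, had 27 to 68 reads.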

How the data were processed

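RNA-seq libraries of 4 samples (2 si-control, 2 si-DLX6) were prepared using the SMARTER kit for mRNA from 1.3 µg of total RNA, per the labels' protocols. The authors deposited 1 table with 1 value column per library and no unit. The deposited values were taken as FPKM. All 28637 genes above 0 came out as whole reads (within 0.0001) of a step with a fixed ratio between libraries. A gene above 0 in only 1 library meets this by construction, so that count overstates the check. Implied gene lengths were whole for 27141, for 1493 more after a common factor of the reads was restored, and for all but 3. The submitters' processing notes name GRCm38 and mm10, although rows carry human symbols and identifiers. No source names the aligner, counter, strand setting or whether reads or fragments were counted; "reads" stands for both. Totals (12075285 and 9678221 for si-control, 10485013 and 10665357 for si-DLX6) came from mitochondrial gene lengths, which gave a common total in 11 of 13. Read intervals cover counting error only.

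Groups were compared by limma-trend on log2(FPKM + 1) with no covariate, in limma 3.58.1 under R 4.3.3. Genes entered when 2 or more libraries reached 1 FPKM (15504 genes). All p-values were adjusted together by Benjamini-Hochberg, and a gene was called at an adjusted p under 0.05. This scale understates changes of low genes. SE is limma's moderated standard error. The genes, roles, related lists, motifs and alternatives were chosen with earlier results of these data known. All 47 genes are named. Of related lists, called genes by smallest p are named, plus the rises and *AURKB*. *CLIP1*, *ANAPC16*, *AURKB*, the line markers, the partner pairs and the near-copies were picked after values were seen. Alternatives were other scalings, pseudocounts and filters, limma-voom on recovered reads (1664 genes lower, 2157 higher), a replicate block and leaving out each library. Lists are described by counts and medians, with no set test.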

Additional observations from a re-analysis of the deposited data

How the results depend on the processing

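Over 11 alternatives no gene of the set that was tested was called in the direction opposite to its main value, and 0 were called higher; the filter of 5 FPKM tested 42 of the 47, leaving out *CENPC*, *CENPI*, *CENPP*, *NSL1* and *SGOL1*. The count of falls (12) was 17 by median-of-ratios scaling, 14 by upper-quartile scaling, 12 with a pseudocount of 0.1, 15 of 42 with a filter of 5 FPKM, 17 by limma-voom and 8 to 9 without 1 library. With no filter it was 3, and of the 28637 genes then tested 205 were lower and 167 higher (1471 and 1575 as reported; 683 to 915 and 682 to 852 without 1 library). The all-gene count of falls moved too, from 1471 to 1817 by median-of-ratios scaling, 1517 by upper-quartile scaling and 1401 with a pseudocount of 0.1. It was 1491 of 9409 with a filter of 5 FPKM and 1664 by limma-voom. *CDC20* also lost its call by upper-quartile scaling (limma adjusted p = 0.0553). The median log2 difference of the 47 ranged from −0.33 to −0.18 without 1 library, being −0.33 without si-DLX6 2, and from −0.32 to −0.23 otherwise. With no filter the related lists had 3 falls and 0 rises (other kinetochore genes) and 0 calls (anaphase, cohesin and condensin genes). Without 1 library the other kinetochore genes had 5 to 7 falls and 0 to 1 rises, the anaphase genes 4 to 6 falls and 0 rises, the cohesin genes 0 falls and the condensin genes 0 to 1. Cohesin had 1 fall by upper-quartile scaling and 2 rises by limma-voom. The labels give both groups replicate numbers 1 and 2 but do not say that a number marks a shared culture or day. Same-numbered libraries deviated together only weakly across tested genes (r = 0.202). With the replicate number as a block, 2370 genes in all were lower and 2749 higher, 19 of the 47 were lower, the other kinetochore genes had 13 falls and 2 rises, the anaphase genes 11 falls and cohesin 2 rises. The cause of these shifts was not tested. Genes with few reads, such as *CENPC* (80 to 95 per library), allow only coarse estimates.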

Other observations

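Across the 47 genes, levels were higher in library 2 than in library 1 for 33 genes with si-control (median log2 difference 0.13) and for 34 genes with si-DLX6 (0.06), on the log2(FPKM + 1) scale. This is not particular to the 47. The upper-quartile scaling factors over all genes were also higher in library 2, at 1.01 against 0.9618 with si-control and 1.048 against 0.9822 with si-DLX6. The share of all tested genes higher in library 2 was not computed. The median absolute log2 difference between libraries of a group was 0.15 (si-control) and 0.12 (si-DLX6) for the 47 genes, and 0.16 and 0.17 for all genes tested.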
